A study of Homo sapiens with 24 samples.

Results

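The 46 genes described here encode glycoproteins of the extracellular matrix and enzymes that act on them. They comprise 9 laminin chains, 4 basement membrane linkers, 12 genes of microfibrils and elastic fibres, 8 matricellular genes with the SPARC family, 4 latent TGF-beta binding proteins, 2 genes of the Fraser complex, 3 lysyl oxidases and 4 other glycoproteins. They were picked by gene symbol, with earlier results of these data known, and all 46 were found among the 58174 symbols kept from the tables of the libraries. The unit is FPKM, fragments scaled to transcript length and library depth, which is a level per length. A gene was tested where it reached 1 FPKM in at least 3 of the 24 libraries, which 40 of the 46 genes did, out of 15828 genes in all.

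The cells were HEK293A, an adherent line from human embryonic kidney, grown in medium with serum on hydrogels whose surface carried fibronectin. The gels had a stiffness of 40 or 1 kPa, and every group shared the coating and the medium. Cells labelled RAP2A/B/C-tKO lack the small GTPases RAP2A, RAP2B and RAP2C, cells labelled LATS1/2-dKO lack the kinases LATS1 and LATS2, cells labelled YAP/TAZ-dKO lack YAP (gene YAP1) and TAZ (gene WWTR1), and WT cells carry none of these deletions. Each of the 4 genotypes was grown on both gels in 3 biological replicates, which gives 8 groups. The labels say neither how the genes were deleted nor from how many clones each line came, so the effects of a genotype and of a clone cannot be told apart.

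Laminins are cross-shaped trimers of an alpha, a beta and a gamma chain that polymerise under epithelia into the base of the basement membrane, where nidogens, perlecan and agrin tie them to collagen and to cell surface receptors. Fibrillins, fibulins and emilins build microfibrils and elastic fibres, which store latent TGF-beta, and lysyl oxidases crosslink the fibres. In the Hippo pathway LATS kinases restrain YAP and TAZ, transcriptional coactivators that work through TEAD factors, and RAP2 is known to carry signals from soft matrix to that pathway.

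Depth, recovered from the deposited confidence intervals, was 18.44 to 40.18 per library with a median of 30.94, in units of 1e6 fragments. The libraries RAP2A/B/C-tKO 40 kPa replicate 3 and LATS1/2-dKO 40 kPa replicate 1 stood apart and are called GC-skewed here. Their difference from the 1 kPa libraries of their genotype followed the GC content of transcripts with a rank correlation across genes of -0.65 and -0.64, against -0.374 to 0.312 in the other 22 libraries. Of the targeted genes, YAP1 fell in YAP/TAZ-dKO cells to 6.198 ± 0.653 FPKM at 40 kPa and 6.06 ± 0.178 at 1 kPa, against 31.6 ± 0.614 and 30.9 ± 1.05 in WT cells (mean ± SD, n = 3). WWTR1 fell by 1.29 on the log2 scale in YAP/TAZ-dKO cells and LATS1 by 1.08 in LATS1/2-dKO cells, where LATS2 was not called. In RAP2A/B/C-tKO cells RAP2A fell by 0.31, RAP2B rose by 0.26 and RAP2C was not called. YAP1 and WWTR1 transcripts were thus lower under the YAP/TAZ-dKO label and LATS1 under the LATS1/2-dKO label. RAP2A averaged 6.79 ± 0.667 FPKM at 40 kPa in RAP2A/B/C-tKO cells against 8.78 ± 0.245 in WT cells (n = 3 each), and with RAP2B higher the transcripts of the RAP2 genes do not check that label. The genotypes are named as labelled. Among the cell type markers, the epithelial keratins KRT8 and KRT18 and VIM were at 28.0 FPKM or more in every library, and NEFM and PAX2 were at or below 1.30 FPKM. All 6 endothelial and 5 of 6 immune markers found stayed under 1 FPKM. Of 10 fibroblast markers 6 also did, with DCN listed at 0 in all 24 libraries. COL1A1, another of the 10, stood at 3.31 to 7.88 FPKM over the 24 libraries, and COL3A1 and LUM reached 11.2 and 9.02 FPKM.

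Markers of the HEK293 line itself moved with genotype. Of 10 tested, 5 rose and 5 fell in YAP/TAZ-dKO cells, 5 rose and 3 fell in LATS1/2-dKO cells and 4 rose and 1 fell in RAP2A/B/C-tKO cells. Of all genes tested, 50.6%, 33.9% and 16.0% were called in these comparisons. PAX2, counted as a rise in YAP/TAZ-dKO cells, averaged 1.03 FPKM there at 40 kPa against 0.372 in WT cells and passed the filter through that line. Summed over the 11 found, they ranged from 731 to 746 FPKM at 40 kPa and 821 to 889 FPKM at 1 kPa in YAP/TAZ-dKO libraries, from 1213 to 1267 FPKM at 40 kPa and 1203 to 1254 FPKM at 1 kPa in LATS1/2-dKO libraries, from 955 to 969 FPKM at 40 kPa and 840.0 to 871 FPKM at 1 kPa in RAP2A/B/C-tKO libraries and from 771 to 799.9 FPKM at 40 kPa and 586 to 613 FPKM at 1 kPa in WT libraries. The keratin gene KRT8 averaged 29.3 ± 1.85 FPKM at 40 kPa in YAP/TAZ-dKO cells and 508 ± 28.8 in LATS1/2-dKO cells, against 236 ± 5.98 in WT cells (log2 change -2.50 and 1.42). KRT19, another keratin gene, averaged 0.0636 ± 0.110 FPKM in YAP/TAZ-dKO cells against 19.3 ± 1.62 in WT cells (log2 change -4.09), and the neurofilament gene NEFL 457 ± 0.685 against 14.99 ± 0.439 (log2 change 4.85). The part of these shifts in the changes of matrix genes described below was not tested.

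Transcripts of alpha, beta and gamma chains of laminin were all present in WT cells. Over the 6 WT libraries 17 of the 46 genes averaged at least 10 FPKM, 18 averaged 1 to 10 FPKM and 11 averaged less than 1 FPKM. LAMC1, the gamma chain shared by most laminins, was highest with a WT mean of 112.7 FPKM, followed by SPARC, a collagen-binding matricellular protein, with 105.4 FPKM. Next came AGRN (agrin, 78.7 FPKM), the alpha chain gene LAMA5 (62.3 FPKM), the beta chain gene LAMB1 (53.0 FPKM), FSTL1 (a secreted glycoprotein of the follistatin family, 48.6 FPKM), LTBP3 (47.5 FPKM) and FBLN1 (fibulin, 42.4 FPKM). In WT cells LAMC1 stood at 105, 117 and 109 FPKM at 40 kPa and 112, 113 and 120.2 FPKM at 1 kPa. LAMA5 stood at 64.5, 52.6 and 57.99 FPKM at 40 kPa and 70.5, 69.9 and 58.6 FPKM at 1 kPa, and LAMA1, the alpha chain of the earliest embryonic basement membranes, at 9.88, 9.71 and 10.3 FPKM at 40 kPa and 8.38, 9.29 and 10.5 FPKM at 1 kPa. The 3 libraries at 40 kPa and the 3 at 1 kPa overlapped for LAMC1, LAMA5 and LAMA1. For LAMB1 those at 40 kPa (55.02 to 60.8 FPKM) lay above those at 1 kPa (44.2 to 51.2 FPKM), a change not called by limma (log2 0.26, adjusted p = 0.4175). FN1, the fibronectin gene, was low beside these chains with 3.37, 4.06 and 4.26 FPKM at 40 kPa and 3.91, 3.35 and 3.09 FPKM at 1 kPa in WT cells.

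**Figure D1:**
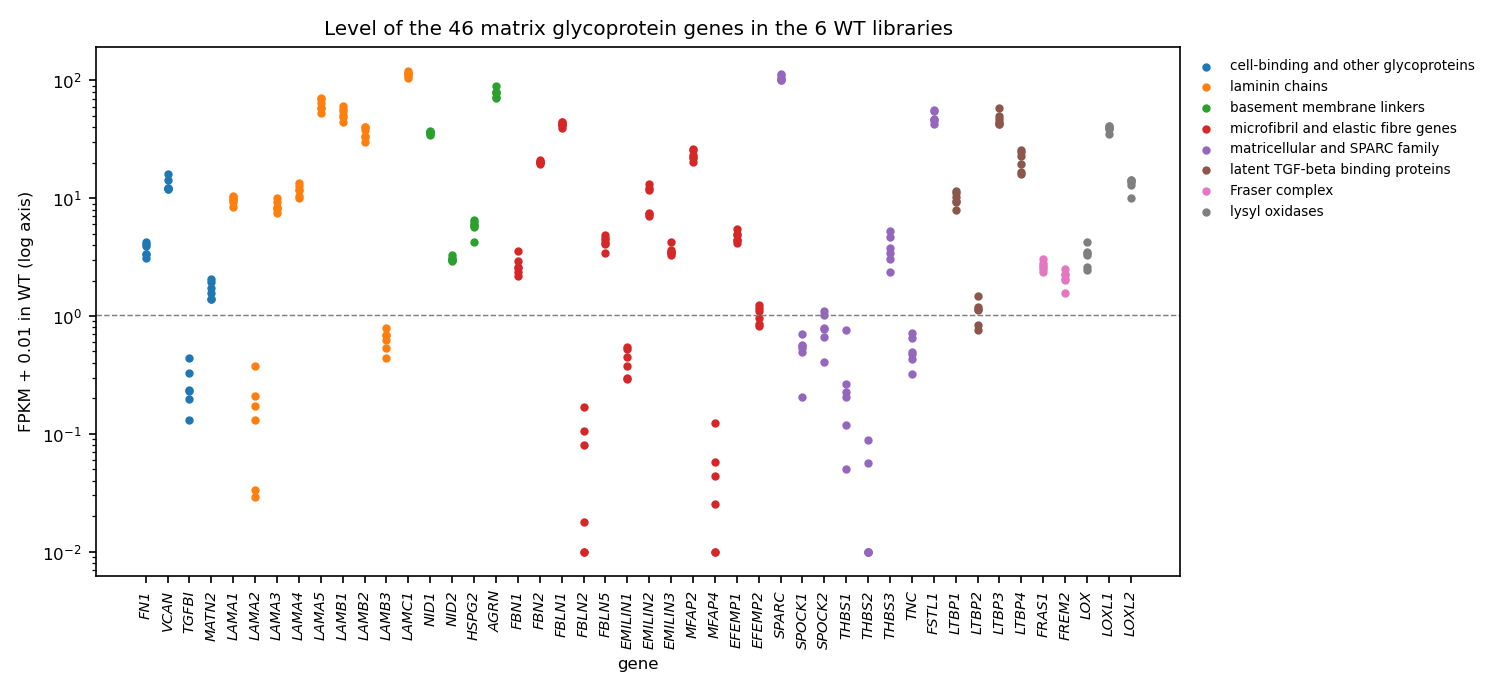
FPKM of each of the 46 genes in the 6 WT libraries on a log axis (0.01 added so that a listed 0 can be drawn), 1 point per library and 1 colour per role, with a dashed line at 1 FPKM. LAMC1, SPARC and AGRN lie at the top, and the 11 genes with a mean below the line include the 6 that were not tested.

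The genes that did not pass the filter were LAMA2, FBLN2, THBS2, EMILIN1, MFAP4 and TGFBI. EMILIN1 ranged between 0.122 and 0.827 FPKM over the 24 libraries and the alpha chain gene LAMA2 between 0.00263 and 0.363 FPKM. FBLN2, THBS2 and MFAP4 did not exceed 0.231, 0.0865 and 0.184 FPKM. TGFBI, an integrin-binding protein induced by TGF-beta, was listed at 0 in 5 of the 6 YAP/TAZ-dKO libraries and at 0.0123 FPKM in the other, with up to 1.43 FPKM in RAP2A/B/C-tKO cells, 0.874 FPKM in LATS1/2-dKO cells and 0.431 FPKM in WT cells, and it was too low to test. LAMB3, SPOCK1, THBS1 and TNC had no WT library at 1 FPKM and passed through libraries of the knockout lines, so a difference from WT was built into their selection. The filter was passed in LATS1/2-dKO cells by LAMB3 and THBS1 (6 libraries each at 1 FPKM) and in YAP/TAZ-dKO cells by SPOCK1 and TNC (6 and 5 libraries). In RAP2A/B/C-tKO cells THBS1 met it as well, with 3 libraries at 1 FPKM. The changes of these 4 genes in those lines are given as a description, with no test, and counts are also given without all 4 genes.

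Each knockout line was set against WT by the mean of its differences at 40 and 1 kPa, and all 3 comparisons use the same 6 WT libraries. Changes are on the scale of log2(FPKM + 1), which understates those of low genes, and are given ± the standard error. A gene is said to have risen or fallen, or to be called, where limma's p adjusted over all 15828 genes was below 0.05. In YAP/TAZ-dKO cells 27 of the 40 genes tested changed, 8 upward and 19 downward, beside 50.6% of all genes tested (23.6% upward and 27.0% downward). The median log2 change was -0.16 over the 40 genes and 0.0 over all genes. Without LAMB3, SPOCK1, THBS1 and TNC, 24 of 36 changed, 6 upward and 18 downward. On the log2(FPKM + 1) scale the largest falls were in SPARC, LAMA4, EMILIN2 and LAMB1, and 7 of the 8 laminin chains tested fell, while EMILIN3 and NID2 were among those that rose. These changes stood beside the shifts of KRT8, KRT19 and NEFL given above. In bulk RNA fewer cells that make a transcript and less transcript per cell cannot be told apart.

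In LATS1/2-dKO cells 19 of the 40 genes changed, 12 upward and 7 downward, beside 33.9% of all genes (16.0% upward and 17.8% downward). The median log2 change was 0.07 over the 40 genes and -0.01 over all genes. Without the same 4 genes, 17 of 36 changed, 10 upward and 7 downward. MATN2 (matrilin), EFEMP1 (a fibulin) and the laminin chain LAMA5 were among those that rose, THBS1 (thrombospondin) and LAMB3 were also higher, and VCAN (versican), EMILIN3 and MFAP2 were among those that fell. In RAP2A/B/C-tKO cells 8 of the 40 genes changed, 5 upward and 3 downward, beside 16.0% of all genes (7.4% upward and 8.57% downward). The median log2 change was 0.03 over the 40 genes and 0.0 over all genes. FSTL1, LOXL1 and EFEMP1 were among those that rose, THBS1 was also higher, and VCAN, LAMB1 and FBN2 fell. These 8 of 40, and 7 of 36 without the same 4 genes, are near the share of all genes. Without the 2 GC-skewed libraries the counts were 12 in RAP2A/B/C-tKO, 23 in LATS1/2-dKO and 28 in YAP/TAZ-dKO cells, and they held all 8, 19 and 27 of the genes called with them. The shares of all genes called were 27.6%, 42.5% and 61.3% in these fits.

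**Figure D2:**
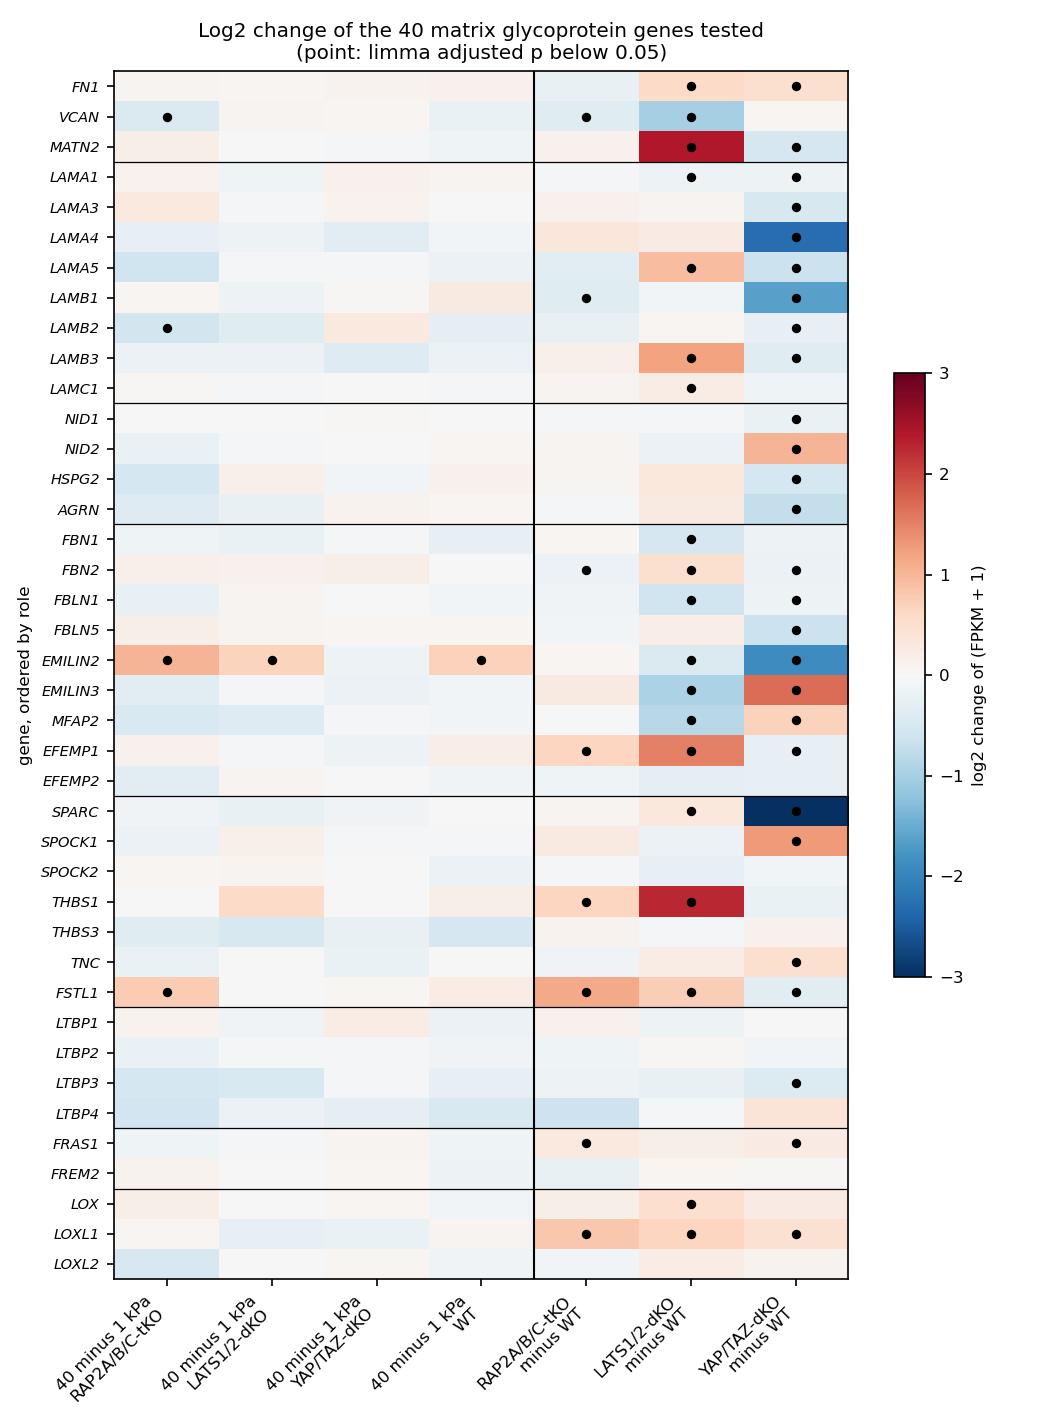
Log2 change of (FPKM + 1) of the 40 genes tested, ordered by role, with stiffness comparisons (40 minus 1 kPa) in the left 4 columns and knockout lines minus WT in the right 3. Red is higher and blue lower in the group named first, and a point marks a limma adjusted p below 0.05. The right-hand YAP/TAZ-dKO column holds the deepest blue, in SPARC, LAMA4, EMILIN2 and LAMB1, and the LATS1/2-dKO column the deepest red, in MATN2 and THBS1. Points of LAMB3 and THBS1 in the LATS1/2-dKO column and of SPOCK1 and TNC in the YAP/TAZ-dKO column follow from the filter. So does the point of THBS1 in the right-hand RAP2A/B/C-tKO column.

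SPARC (chr5:151040657-151066726, hg19) had the largest change of all 40 genes on the log2(FPKM + 1) scale, whereas with a pseudocount of 0.1 THBS1 in LATS1/2-dKO cells was further from WT (log2 change 4.05 against -3.10 for SPARC in YAP/TAZ-dKO cells). In YAP/TAZ-dKO cells it stood at 12.03, 10.5 and 12.7 FPKM at 40 kPa and 11.5, 14.3 and 12.4 FPKM at 1 kPa. WT cells had 110.2, 104 and 104 FPKM at 40 kPa and 101, 100.4 and 113 FPKM at 1 kPa, and every YAP/TAZ-dKO library lay far below every WT library on both gels. The YAP/TAZ-dKO mean was 0.111 times the WT mean at 40 kPa and 0.122 times at 1 kPa (log2 change -3.01 ± 0.07, adjusted p = 1.76e-16). In LATS1/2-dKO cells SPARC rose (log2 change 0.32 ± 0.07, adjusted p = 0.00224), with 104, 126 and 139.5 FPKM at 40 kPa and 142, 147 and 138 FPKM at 1 kPa. The LATS1/2-dKO libraries were all above WT at 1 kPa and overlapped with WT at 40 kPa. RAP2A/B/C-tKO cells had 121, 111 and 92.4 FPKM at 40 kPa and 120.1, 111 and 114 FPKM at 1 kPa, a log2 change of 0.08 that was not called.

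**Figure D3:**
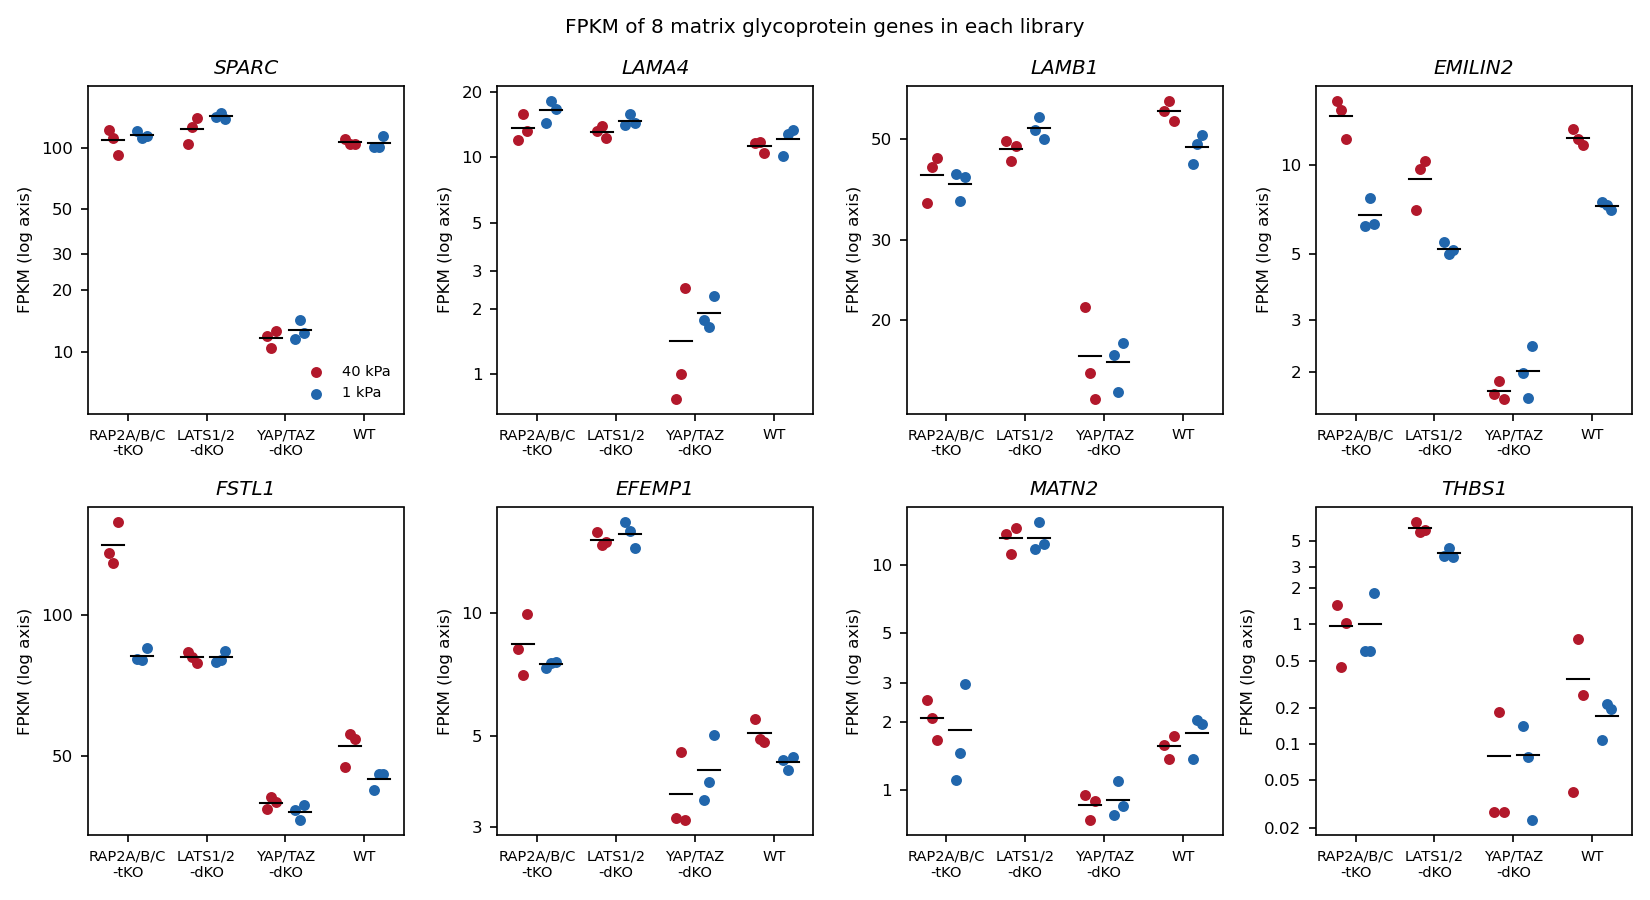
FPKM in each library of 8 genes with large changes, on log axes that differ between panels, in red for 40 kPa and in blue for 1 kPa, with the mean of 3 libraries as a bar. SPARC, LAMA4, LAMB1 and EMILIN2 are lowest in YAP/TAZ-dKO cells, FSTL1 is highest in RAP2A/B/C-tKO cells at 40 kPa, and EFEMP1, MATN2 and THBS1 are highest in LATS1/2-dKO cells.

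Of the 8 laminin chains tested, 7 fell in YAP/TAZ-dKO cells, beside 27.0% of all genes tested. LAMA4 (chr6:112429963-112576141), the alpha chain of laminins in vessel and muscle basement membranes, stood at 0.771, 0.996 and 2.48 FPKM at 40 kPa and 1.77, 1.65 and 2.302 FPKM at 1 kPa in YAP/TAZ-dKO cells. WT cells had 11.7, 11.8 and 10.4 FPKM at 40 kPa and 10.1, 12.8 and 13.4 FPKM at 1 kPa, and the libraries did not overlap on either gel. The mean was 0.125 times that of WT at 40 kPa and 0.157 times at 1 kPa (log2 change -2.29 ± 0.13, adjusted p = 3.82e-11). In LATS1/2-dKO cells LAMA4 stood at 13.2, 13.9 and 12.2 FPKM at 40 kPa and 14.1, 15.8 and 14.5 FPKM at 1 kPa and in RAP2A/B/C-tKO cells at 12.1, 15.9 and 13.2 FPKM at 40 kPa and 14.5, 18.2 and 16.7 FPKM at 1 kPa. Those libraries were all above WT on the same gel, but neither change was called (log2 0.24 and 0.33, adjusted p = 0.168 and 0.0849).

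LAMB1 (chr7:107564244-107643700), a beta chain found in many basement membrane laminins, stood at 21.4, 15.3 and 13.4 FPKM at 40 kPa and 16.8, 13.9 and 17.8 FPKM at 1 kPa in YAP/TAZ-dKO cells. WT cells had 57.7, 60.8 and 55.02 FPKM at 40 kPa and 44.2, 48.9 and 51.2 FPKM at 1 kPa. No library overlapped, and the log2 change was -1.64 ± 0.09, adjusted p = 2.96e-11. LAMB1 also fell in RAP2A/B/C-tKO cells, which had 36.2, 43.5 and 45.5 FPKM at 40 kPa and 41.95, 36.6 and 41.4 FPKM at 1 kPa (log2 change -0.36 ± 0.09, adjusted p = 0.00836), below every WT library of the same gel. LATS1/2-dKO cells had 49.7, 44.9 and 48.3 FPKM at 40 kPa and 52.5, 56.03 and 50.05 FPKM at 1 kPa, and their change of -0.07 was not called.

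The other chains that fell in YAP/TAZ-dKO cells did so by less. LAMA5 stood there at 34.8, 42.8 and 39.01 FPKM at 40 kPa and 36.95, 39.5 and 44.4 FPKM at 1 kPa (log2 change -0.64 ± 0.24, adjusted p = 0.0337), below every WT library of the same gel. LAMA3 and LAMB3, chains of the laminin that anchors the epidermis, changed by -0.48 ± 0.07, adjusted p = 2.08e-05 and by -0.37 ± 0.07, adjusted p = 0.000127. LAMB3 stayed below 1 FPKM in every WT and YAP/TAZ-dKO library, with 0.5 to 9.7 fragments per YAP/TAZ-dKO library, and was tested through its LATS1/2-dKO libraries. LAMB2, the beta chain of kidney glomerulus and neuromuscular junction, changed by -0.24 ± 0.09, adjusted p = 0.0286, and LAMA1 by -0.16 ± 0.05, adjusted p = 0.0198. LAMA1 stood at 9.21, 8.46 and 9.42 FPKM at 40 kPa and 7.97, 7.85 and 8.47 FPKM at 1 kPa, which overlapped with WT at 1 kPa. LAMC1 was the chain that was not called, with 103, 108 and 97.6 FPKM at 40 kPa and 102, 113 and 97.9 FPKM at 1 kPa (log2 change -0.12 ± 0.06, adjusted p = 0.0765).

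Among laminin chains LAMA5 and LAMC1 rose and LAMA1 fell in LATS1/2-dKO cells, and LAMB3 was higher. LAMA5 stood at 84.1, 151 and 125 FPKM at 40 kPa and 117, 122 and 123 FPKM at 1 kPa in LATS1/2-dKO cells. These libraries all lay above the WT libraries given above, and the log2 change was 0.93 ± 0.24, adjusted p = 0.00565. The lowest of them, at 84.1 FPKM, was the GC-skewed replicate 1 at 40 kPa, and without both GC-skewed libraries the change was 1.04 (adjusted p = 9.19e-09). LAMB3 stood at 2.21, 2.82 and 2.49 FPKM at 40 kPa and 2.82, 3.19 and 2.905 FPKM at 1 kPa in LATS1/2-dKO cells. WT cells had 0.612, 0.427 and 0.527 FPKM at 40 kPa and 0.789, 0.685 and 0.676 FPKM at 1 kPa, all below (log2 change 1.21, a difference that the filter built in). LAMC1 rose slightly, to 129, 122 and 141 FPKM at 40 kPa and 127, 143 and 134 FPKM at 1 kPa in LATS1/2-dKO cells (log2 change 0.23 ± 0.06, adjusted p = 0.00309). LAMA1 fell by 0.15 on the log2 scale (adjusted p = 0.0348), with 8.45, 8.48 and 7.63 FPKM at 40 kPa and 9.49, 9.02 and 8.53 FPKM at 1 kPa, and its LATS1/2-dKO and WT libraries overlapped at 1 kPa.

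The proximal promoters of the genes with the 4 largest falls in YAP/TAZ-dKO cells, and of THBS1, which was far higher in LATS1/2-dKO cells than in WT, are shown because YAP and TAZ act through TEAD factors at promoters and enhancers. Each is the 250 bases before the RefSeq start of the gene on build GRCh38.p14, 5′ to 3′ on the gene's strand. Capitals mark GGAATG, the core of the TEAD motif, on either strand (CATTCC on the reverse), and TGAGTCA, an AP-1 motif.
SPARC (chr5:151686916-151687165, - strand): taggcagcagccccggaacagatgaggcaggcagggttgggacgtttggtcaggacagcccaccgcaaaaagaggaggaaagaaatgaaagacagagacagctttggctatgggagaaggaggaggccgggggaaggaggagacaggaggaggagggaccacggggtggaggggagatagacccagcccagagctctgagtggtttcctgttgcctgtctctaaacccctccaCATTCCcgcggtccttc
LAMA4 (chr6:112254568-112254817, - strand): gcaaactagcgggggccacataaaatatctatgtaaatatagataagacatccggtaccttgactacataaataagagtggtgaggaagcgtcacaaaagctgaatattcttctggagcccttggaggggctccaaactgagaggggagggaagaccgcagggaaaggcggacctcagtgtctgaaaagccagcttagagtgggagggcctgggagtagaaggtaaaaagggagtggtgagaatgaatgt
EMILIN2 (chr18:2846756-2847005, + strand): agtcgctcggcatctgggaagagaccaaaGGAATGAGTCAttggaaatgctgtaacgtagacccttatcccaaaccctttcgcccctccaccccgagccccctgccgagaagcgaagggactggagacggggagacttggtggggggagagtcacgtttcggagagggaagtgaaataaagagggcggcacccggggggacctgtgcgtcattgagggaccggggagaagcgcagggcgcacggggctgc
LAMB1 (chr7:108003162-108003411, - strand): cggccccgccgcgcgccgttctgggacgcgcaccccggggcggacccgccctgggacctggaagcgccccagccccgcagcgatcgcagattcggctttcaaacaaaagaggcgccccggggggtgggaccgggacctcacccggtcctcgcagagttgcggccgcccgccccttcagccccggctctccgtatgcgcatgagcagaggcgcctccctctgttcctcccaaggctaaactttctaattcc
THBS1 (chr15:39580829-39581078, + strand): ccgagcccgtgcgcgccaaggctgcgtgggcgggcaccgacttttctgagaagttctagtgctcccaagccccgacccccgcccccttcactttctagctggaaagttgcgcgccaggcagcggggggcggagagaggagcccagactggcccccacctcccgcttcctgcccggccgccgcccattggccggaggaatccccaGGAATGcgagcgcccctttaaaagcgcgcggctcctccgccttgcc
The SPARC window holds CATTCC with its first base at -17 from the start, and the THBS1 window holds GGAATG at -46. In EMILIN2, GGAATG at -221 and TGAGTCA at -217 overlap. Neither motif is in the LAMA4 or LAMB1 window, nor in that of FSTL1, which is not shown. MATN2, with a larger log2 change than THBS1 in LATS1/2-dKO cells (2.41 against 2.27), is not shown either and is not among the motif holders named below. Over all 35116 windows, 11.9% hold GGAATG and 4.2% hold TGAGTCA, and of the 27305 genes with a window 14.3% and 5.19% hold them in at least 1. A RefSeq window was found for 37 of the 46 genes, of which 7 hold GGAATG (EMILIN2, FBN1, LAMA2, LTBP4, SPARC, THBS1 and THBS2) and 4 hold TGAGTCA (EMILIN2, LAMA3, LAMB3 and MFAP2). A match describes these letters in this window and does not show a bound site.

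Of the basement membrane linkers, AGRN, HSPG2 and NID1 fell and NID2 rose in YAP/TAZ-dKO cells, and none of the 4 was called in the other lines. AGRN, which organises the neuromuscular junction and binds laminin, stood at 43.3, 45.1 and 61.5 FPKM at 40 kPa and 46.1, 42.8 and 49.1 FPKM at 1 kPa in YAP/TAZ-dKO cells. WT cells had 90.3, 71.3 and 79.1 FPKM at 40 kPa and 78.01, 80.4 and 72.97 FPKM at 1 kPa, all higher (log2 change -0.71 ± 0.20, adjusted p = 0.00723). LATS1/2-dKO cells had 47.8, 117 and 119 FPKM at 40 kPa and 103, 96.4 and 105.5 FPKM at 1 kPa. Of these, the GC-skewed replicate 1 at 40 kPa lay below WT and the rest lay above WT on the same gel. The AGRN change there was 0.26 ± 0.20 (adjusted p = 0.359), not called with the GC-skewed library included. NID2, a nidogen, stood at 7.24, 7.25 and 7.05 FPKM at 40 kPa and 6.54, 7.54 and 7.33 FPKM at 1 kPa in YAP/TAZ-dKO cells. WT cells had 3.08, 3.26 and 3.04 FPKM at 40 kPa and 2.895, 2.96 and 2.99 FPKM at 1 kPa, all lower, and the log2 change was 1.01 ± 0.12, adjusted p = 1.70e-06. Its relative NID1 changed by -0.19 ± 0.03, adjusted p = 1.11e-05, and every YAP/TAZ-dKO library lay below WT. HSPG2 (perlecan) changed by -0.53 ± 0.14, adjusted p = 0.00397, with 3.67, 3.46 and 3.41 FPKM at 40 kPa and 3.52, 3.53 and 4.26 FPKM at 1 kPa in YAP/TAZ-dKO cells and 6.55, 5.87 and 5.71 FPKM at 40 kPa and 5.92, 6.23 and 4.22 FPKM at 1 kPa in WT cells. The HSPG2 libraries overlapped at 1 kPa.

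The emilins, glycoproteins at the interface of elastin and microfibrils, moved in different directions in YAP/TAZ-dKO cells. EMILIN2 (chr18:2847028-2915991) stood at 1.68, 1.87 and 1.63 FPKM at 40 kPa and 1.98, 1.63 and 2.45 FPKM at 1 kPa in YAP/TAZ-dKO cells. WT cells had 13.2, 12.2 and 11.7 FPKM at 40 kPa and 7.46, 7.33 and 7.05 FPKM at 1 kPa. The YAP/TAZ-dKO libraries were all lower, with a mean of 0.140 times that of WT at 40 kPa and 0.277 times at 1 kPa (log2 change -1.88 ± 0.09, adjusted p = 3.10e-12). EMILIN2 fell less in LATS1/2-dKO cells, which had 7.01, 9.65 and 10.3 FPKM at 40 kPa and 5.46, 4.99 and 5.14 FPKM at 1 kPa, also without overlap (log2 change -0.42 ± 0.09, adjusted p = 0.000888). RAP2A/B/C-tKO cells had 16.4, 15.3 and 12.2 FPKM at 40 kPa and 6.197, 7.75 and 6.31 FPKM at 1 kPa, which overlapped with WT, and the change was not called (log2 0.06).

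EMILIN3 (chr20:39988606-39995467) stood at 12.8, 12.6 and 12.7 FPKM at 40 kPa and 13.9, 15.1 and 14.7 FPKM at 1 kPa in YAP/TAZ-dKO cells. LATS1/2-dKO cells had 0.731, 1.64 and 1.67 FPKM at 40 kPa and 1.39, 1.37 and 1.45 FPKM at 1 kPa. WT cells had 3.41, 3.46 and 3.51 FPKM at 40 kPa and 4.21, 3.63 and 3.28 FPKM at 1 kPa, and neither line overlapped with WT. EMILIN3 thus rose in YAP/TAZ-dKO cells (log2 change 1.68 ± 0.12, adjusted p = 7.31e-10) and fell in LATS1/2-dKO cells (log2 change -0.96 ± 0.12, adjusted p = 2.93e-06). MFAP2, a small glycoprotein bound to fibrillin, did the same. It stood at 36.5, 37.5 and 39.0 FPKM at 40 kPa and 38.5, 36.7 and 40.1 FPKM at 1 kPa in YAP/TAZ-dKO cells and at 8.45, 12.4 and 12.4 FPKM at 40 kPa and 15.9, 15.7 and 12.2 FPKM at 1 kPa in LATS1/2-dKO cells. WT cells had 22.1, 25.4 and 20.1 FPKM at 40 kPa and 26.4, 22.3 and 23.1 FPKM at 1 kPa. The libraries did not overlap, with log2 changes of 0.69 ± 0.12, adjusted p = 6.04e-05 in YAP/TAZ-dKO cells and -0.83 ± 0.12, adjusted p = 1.72e-05 in LATS1/2-dKO cells. The lowest LATS1/2-dKO values of EMILIN3 and MFAP2 came from the GC-skewed replicate 1 at 40 kPa. Without both GC-skewed libraries the LATS1/2-dKO changes were smaller, -0.86 for EMILIN3 and -0.75 for MFAP2 (adjusted p = 1.48e-10 and 1.64e-07). The difference between the 2 knockout lines was not tested.

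EFEMP1 (chr2:56093102-56151274), a fibulin of elastic fibres and of the retina, rose in LATS1/2-dKO and in RAP2A/B/C-tKO cells. It stood at 15.7, 14.6 and 14.8 FPKM at 40 kPa and 16.6, 15.8 and 14.4 FPKM at 1 kPa in LATS1/2-dKO cells and at 8.16, 7.02 and 9.93 FPKM at 40 kPa and 7.33, 7.53 and 7.55 FPKM at 1 kPa in RAP2A/B/C-tKO cells. WT cells had 5.505, 4.92 and 4.83 FPKM at 40 kPa and 4.37, 4.13 and 4.45 FPKM at 1 kPa. Both lines were above WT in every library of the same gel (log2 change 1.52 ± 0.09, adjusted p = 1.10e-10 in LATS1/2-dKO cells and 0.64 ± 0.09, adjusted p = 3.72e-05 in RAP2A/B/C-tKO cells). In YAP/TAZ-dKO cells EFEMP1 changed by -0.24 ± 0.09, adjusted p = 0.0265, and its libraries overlapped with WT at 1 kPa.

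FBLN5, a fibulin needed for elastic fibre assembly, stood at 1.904, 2.86 and 2.55 FPKM at 40 kPa and 2.26, 2.32 and 2.24 FPKM at 1 kPa in YAP/TAZ-dKO cells. WT cells had 4.08, 4.61 and 4.38 FPKM at 40 kPa and 3.41, 4.195 and 4.897 FPKM at 1 kPa, all higher (log2 change -0.65 ± 0.11, adjusted p = 5.49e-05). FBLN1, another fibulin, stood at 23.7, 32.4 and 30.6 FPKM at 40 kPa and 27.3, 26.6 and 27.3 FPKM at 1 kPa in LATS1/2-dKO cells. WT cells had 42.1, 39.3 and 42.4 FPKM at 40 kPa and 41.5, 44.6 and 44.3 FPKM at 1 kPa, again all higher (log2 change -0.59 ± 0.06, adjusted p = 8.67e-07). The lowest FBLN1 value, 23.7 FPKM, came from the GC-skewed replicate 1 at 40 kPa. Without both GC-skewed libraries the FBLN1 change was -0.52 (adjusted p = 6.22e-09).

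The fibrillins, the backbone of microfibrils, went opposite ways in LATS1/2-dKO cells. FBN1, the gene mutated in Marfan syndrome, stood at 1.76, 1.20 and 1.23 FPKM at 40 kPa and 2.12, 1.95 and 1.26 FPKM at 1 kPa in LATS1/2-dKO cells. WT cells had 2.58, 2.34 and 2.18 FPKM at 40 kPa and 3.54, 2.55 and 2.901 FPKM at 1 kPa, all higher on the same gel (log2 change -0.51 ± 0.09, adjusted p = 0.000221). FBN2, a fibrillin of developing tissues, rose there by 0.49 on the log2 scale (adjusted p = 1.91e-08), with 29.1, 31.4 and 30.2 FPKM at 40 kPa and 27.4, 28.2 and 27.1 FPKM at 1 kPa. In RAP2A/B/C-tKO cells FBN2 stood at 18.1, 17.6 and 21.2 FPKM at 40 kPa and 16.1, 16.9 and 17.9 FPKM at 1 kPa. WT cells had 20.1, 20.1 and 20.3 FPKM at 40 kPa and 19.4, 21.3 and 20.4 FPKM at 1 kPa, all higher at 1 kPa and overlapping at 40 kPa (log2 change -0.17 ± 0.04, adjusted p = 0.00583). EFEMP2 was called in none of the 3 comparisons, with log2 changes between -0.30 in LATS1/2-dKO and -0.12 in RAP2A/B/C-tKO cells.

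FSTL1 (chr3:120111140-120170100) rose in RAP2A/B/C-tKO and LATS1/2-dKO cells and fell slightly in YAP/TAZ-dKO cells. RAP2A/B/C-tKO cells had 136, 129 and 158 FPKM at 40 kPa and 80.5, 80.1 and 84.99 FPKM at 1 kPa. LATS1/2-dKO cells had 83.4, 81.5 and 79.2 FPKM at 40 kPa and 79.6, 80.2 and 83.9 FPKM at 1 kPa and YAP/TAZ-dKO cells 38.6, 40.9 and 39.9 FPKM at 40 kPa and 38.4, 36.6 and 39.3 FPKM at 1 kPa. WT cells had 47.5, 55.7 and 54.5 FPKM at 40 kPa and 42.5, 45.8 and 45.8 FPKM at 1 kPa. The RAP2A/B/C-tKO and LATS1/2-dKO libraries all lay above WT and the YAP/TAZ-dKO libraries all lay below, on both gels. The RAP2A/B/C-tKO mean was 2.68 times that of WT at 40 kPa and 1.83 times at 1 kPa (log2 change 1.13 ± 0.05, adjusted p = 5.83e-12). The log2 change was 0.74 ± 0.05, adjusted p = 5.57e-10 in LATS1/2-dKO cells and -0.31 ± 0.05, adjusted p = 2.08e-05 in YAP/TAZ-dKO cells.

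THBS1 (chr15:39873280-39891667), a matricellular protein that activates latent TGF-beta, stood at 7.102, 5.86 and 6.08 FPKM at 40 kPa and 3.76, 4.34 and 3.65 FPKM at 1 kPa in LATS1/2-dKO cells. In RAP2A/B/C-tKO cells it stood at 1.44, 0.440 and 1.02 FPKM at 40 kPa and 0.601, 0.600 and 1.82 FPKM at 1 kPa. WT cells had 0.0403, 0.755 and 0.257 FPKM at 40 kPa and 0.108, 0.216 and 0.196 FPKM at 1 kPa. All LATS1/2-dKO libraries were higher than WT, and the RAP2A/B/C-tKO libraries were higher at 1 kPa and overlapped at 40 kPa. The log2 change was 2.27 in LATS1/2-dKO and 0.63 in RAP2A/B/C-tKO cells, and the filter built in both differences. With a pseudocount of 0.1 the changes were 4.05 and 1.68. The mean was 18.1 times that of WT at 40 kPa and 22.6 times at 1 kPa in LATS1/2-dKO cells. The intervals put THBS1 at 32.9 to 59.6 fragments per library in LATS1/2-dKO cells and at 0.1 to 7.7 in WT cells, so the size of the difference is imprecise. In YAP/TAZ-dKO cells it did not exceed 0.187 FPKM and was not called.

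SPOCK1, a testican proteoglycan of the SPARC family, stood at 2.02, 2.51 and 3.21 FPKM at 40 kPa and 2.05, 2.69 and 3.52 FPKM at 1 kPa in YAP/TAZ-dKO cells. WT cells had 0.688, 0.551 and 0.197 FPKM at 40 kPa and 0.523, 0.482 and 0.557 FPKM at 1 kPa, all lower (log2 change 1.28). TNC (tenascin) stood at 0.705, 1.05 and 1.07 FPKM at 40 kPa and 1.33, 1.02 and 1.37 FPKM at 1 kPa in YAP/TAZ-dKO cells. WT cells had 0.419, 0.463 and 0.644 FPKM at 40 kPa and 0.482, 0.705 and 0.309 FPKM at 1 kPa, all lower on the same gel (log2 change 0.47). The filter built in both differences. Both genes were low, with at most 42.0 fragments for SPOCK1 and 7.4 for TNC in any of the 24 libraries. The rest of this role, SPOCK2 and THBS3, was called in no knockout line, with log2 changes between -0.26 for SPOCK2 in LATS1/2-dKO cells and 0.13 for THBS3 in YAP/TAZ-dKO cells.

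MATN2 (chr8:98881068-99048944), a matrilin that links matrix filaments, rose in LATS1/2-dKO cells and fell in YAP/TAZ-dKO cells. It stood at 13.8, 11.3 and 14.7 FPKM at 40 kPa and 11.8, 15.5 and 12.4 FPKM at 1 kPa in LATS1/2-dKO cells and at 0.943, 0.731 and 0.887 FPKM at 40 kPa and 0.767, 1.09 and 0.844 FPKM at 1 kPa in YAP/TAZ-dKO cells. WT cells had 1.57, 1.38 and 1.73 FPKM at 40 kPa and 1.37, 2.05 and 1.95 FPKM at 1 kPa. All LATS1/2-dKO libraries lay above and all YAP/TAZ-dKO libraries below those of WT. The LATS1/2-dKO mean was 8.51 times that of WT at 40 kPa and 7.40 times at 1 kPa (log2 change 2.41 ± 0.13, adjusted p = 4.03e-11), and the log2 change in YAP/TAZ-dKO cells was -0.51 ± 0.13, adjusted p = 0.00260.

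VCAN, the hyaluronan-binding proteoglycan versican, stood at 5.27, 6.22 and 7.45 FPKM at 40 kPa and 6.37, 5.86 and 5.39 FPKM at 1 kPa in LATS1/2-dKO cells. RAP2A/B/C-tKO cells had 8.49, 7.94 and 8.68 FPKM at 40 kPa and 11.4, 10.9 and 12.6 FPKM at 1 kPa. WT cells had 11.9, 12.1 and 12.2 FPKM at 40 kPa and 14.2, 12.2 and 16.1 FPKM at 1 kPa. The LATS1/2-dKO libraries lay below WT on both gels and the RAP2A/B/C-tKO libraries at 40 kPa alone (log2 change -0.99 ± 0.07, adjusted p = 2.94e-09 in LATS1/2-dKO and -0.37 ± 0.07, adjusted p = 0.00124 in RAP2A/B/C-tKO cells). FN1 rose in LATS1/2-dKO and YAP/TAZ-dKO cells. It stood at 6.998, 4.74 and 6.57 FPKM at 40 kPa and 5.65, 5.14 and 6.71 FPKM at 1 kPa in LATS1/2-dKO cells and at 6.37, 4.38 and 6.57 FPKM at 40 kPa and 5.77, 4.39 and 5.54 FPKM at 1 kPa in YAP/TAZ-dKO cells, all above the WT libraries of the same gel. The log2 change was 0.57 ± 0.11, adjusted p = 0.000727 and 0.47 ± 0.11, adjusted p = 0.00215 in these lines, and RAP2A/B/C-tKO cells had 2.88, 3.26 and 3.15 FPKM at 40 kPa and 3.57, 3.08 and 2.03 FPKM at 1 kPa with no call (log2 -0.23).

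Of the lysyl oxidases, LOXL1 rose in all 3 knockout lines, measured against the same WT libraries. It stood at 86.6, 90.5 and 44.8 FPKM at 40 kPa and 73.8, 67.9 and 60.9 FPKM at 1 kPa in RAP2A/B/C-tKO cells. WT cells had 41.2, 39.0 and 40.8 FPKM at 40 kPa and 39.2, 39.6 and 35.3 FPKM at 1 kPa, all lower (log2 change 0.80 ± 0.15, adjusted p = 0.000971). The lowest RAP2A/B/C-tKO value, 44.8 FPKM, came from the GC-skewed replicate 3 at 40 kPa, and without both GC-skewed libraries the change was 0.96 (adjusted p = 2.59e-10). LATS1/2-dKO cells had 37.7, 68.1 and 69.6 FPKM at 40 kPa and 65.2, 67.5 and 68.8 FPKM at 1 kPa, where the GC-skewed replicate 1 at 40 kPa was the sole library below WT. LOXL1 changed by 0.64 ± 0.15, adjusted p = 0.00253 in LATS1/2-dKO cells and by 0.46 ± 0.15, adjusted p = 0.0143 in YAP/TAZ-dKO cells. LOX rose in LATS1/2-dKO cells (log2 change 0.50 ± 0.11, adjusted p = 0.00207), and LOXL2 was called in none.

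Among the 4 latent TGF-beta binding proteins 1 was called in a knockout comparison, and among the 2 Fraser complex genes also 1. LTBP3, which binds latent TGF-beta, fell in YAP/TAZ-dKO cells (log2 change -0.42 ± 0.12, adjusted p = 0.00865), where it stood at 29.3, 36.8 and 37.9 FPKM at 40 kPa and 37.4, 31.2 and 39.2 FPKM at 1 kPa against 42.8, 44.5 and 42.8 FPKM at 40 kPa and 49.5, 58.0 and 47.1 FPKM at 1 kPa in WT cells. LTBP4 had log2 changes of -0.61 ± 0.22, adjusted p = 0.0673 in RAP2A/B/C-tKO and 0.39 ± 0.22, adjusted p = 0.149 in YAP/TAZ-dKO cells, neither of them called. Its RAP2A/B/C-tKO values at 40 kPa were 14.8, 17.3 and 4.36 FPKM, the last from the GC-skewed replicate 3. WT cells had 16.0, 16.7 and 19.6 FPKM there. At 1 kPa the RAP2A/B/C-tKO values (18.5, 15.5 and 15.1 FPKM) lay below those of WT (22.95, 25.8 and 24.7 FPKM). FRAS1, part of the complex that holds embryonic skin to its basement membrane, stood at 3.73, 3.15 and 2.98 FPKM at 40 kPa and 2.97, 5.06 and 3.31 FPKM at 1 kPa in RAP2A/B/C-tKO cells. WT cells had 2.35, 2.49 and 2.598 FPKM at 40 kPa and 2.69, 2.79 and 3.02 FPKM at 1 kPa, overlapping at 1 kPa (log2 change 0.30 ± 0.08, adjusted p = 0.0212). Without RAP2A/B/C-tKO 40 kPa replicate 1 or WT 40 kPa replicate 1 that call was lost (log2 change 0.26, adjusted p = 0.0533, and 0.28, adjusted p = 0.0507). FRAS1 also changed by 0.24 ± 0.08, adjusted p = 0.0267 in YAP/TAZ-dKO cells, and FREM2 was not called in any line.

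The study asked how transcripts respond to the stiffness of the gel, and EMILIN2, FSTL1, LAMB2 and VCAN were the genes of the 40 called for it. At 40 against 1 kPa, 4 genes were called in RAP2A/B/C-tKO cells beside 3.87% of all genes, 1 in LATS1/2-dKO cells beside 0.708%, 0 in YAP/TAZ-dKO cells beside 0.347% and 1 in WT cells beside 0.986%. With limma 3 genes in YAP/TAZ-dKO cells had an unadjusted p below 0.05, and the lowest adjusted p was 0.111. The median log2 change of the 40 genes was -0.14 in RAP2A/B/C-tKO, -0.04 in LATS1/2-dKO, -0.01 in YAP/TAZ-dKO and -0.07 in WT cells, against -0.04, -0.03, -0.01 and -0.03 over all genes.

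EMILIN2 rose with stiffness in LATS1/2-dKO, RAP2A/B/C-tKO and WT cells. As the values above show, its 3 libraries at 40 kPa lay above its 3 libraries at 1 kPa in each of these lines and overlapped with them in YAP/TAZ-dKO cells. The mean at 40 kPa was 2.17 times that at 1 kPa in RAP2A/B/C-tKO, 1.73 times in LATS1/2-dKO and 1.69 times in WT cells. The log2 change was 1.01 ± 0.12, adjusted p = 0.000113 in RAP2A/B/C-tKO, 0.67 ± 0.12, adjusted p = 0.0213 in LATS1/2-dKO and 0.69 ± 0.12, adjusted p = 0.0104 in WT cells, and in YAP/TAZ-dKO cells -0.14 with no call. The WT call was lost without WT 1 kPa replicate 3 (log2 change 0.67, adjusted p = 0.0585) or WT 40 kPa replicate 1 (0.64, adjusted p = 0.0542). In LATS1/2-dKO cells it was lost without 1 kPa replicate 1, 2 or 3 or 40 kPa replicate 2, with log2 changes of 0.70, 0.65, 0.66 and 0.62 and adjusted p = 0.0572, 0.113, 0.0630 and 0.0614. With the compared groups fitted alone the adjusted p was 0.194 in RAP2A/B/C-tKO, 0.522 in LATS1/2-dKO and 0.0314 in WT cells.

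FSTL1 rose with stiffness in RAP2A/B/C-tKO cells, where its 3 libraries at 40 kPa (129 to 158 FPKM) lay above those at 1 kPa (80.1 to 85.0 FPKM), a log2 change of 0.77 ± 0.07, adjusted p = 1.38e-06. WT cells showed the same order with a change of 0.23 that was not called (adjusted p = 0.121), and the changes in LATS1/2-dKO and YAP/TAZ-dKO cells were 0.00 and 0.06. The highest RAP2A/B/C-tKO value came from the GC-skewed replicate 3, and without both GC-skewed libraries the change was 0.69 (adjusted p = 3.08e-06). LAMB2 fell in RAP2A/B/C-tKO cells, with 23.97, 27.4 and 23.8 FPKM at 40 kPa and 30.7, 42.5 and 39.6 FPKM at 1 kPa (log2 change -0.56 ± 0.13, adjusted p = 0.0188). VCAN fell there as well, with the values given above and no overlap (log2 change -0.43 ± 0.10, adjusted p = 0.0226). The LAMB2 call was lost without RAP2A/B/C-tKO 40 kPa replicate 3 (-0.52, adjusted p = 0.0720) or 1 kPa replicate 2 or 3 (-0.47 and -0.51, adjusted p = 0.0907 and 0.0773), and the VCAN call without 1 kPa replicate 1 or 3 (-0.44 and -0.37, adjusted p = 0.0656 and 0.0943). With the RAP2A/B/C-tKO libraries fitted alone none of the 3 was called (adjusted p = 0.140 for FSTL1, 0.363 for LAMB2 and 0.294 for VCAN). Leaving out RAP2A/B/C-tKO 40 kPa replicate 1 gave 7 called genes and leaving out 1 kPa replicate 3 gave 2.

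In the 2 GC-skewed libraries the matrix genes rich in GC stood low. All 12 of the 40 genes with a GC content of at least 60% lay below the mean of the other 2 replicates in both libraries, with a median log2 deviation of -0.78 in RAP2A/B/C-tKO 40 kPa replicate 3 and -0.61 in LATS1/2-dKO 40 kPa replicate 1. The 15 genes below 50% GC had medians of 0.20 and 0.05. LAMA5 read 61.05, 64.3 and 15.4 FPKM in the RAP2A/B/C-tKO libraries at 40 kPa and LTBP4 14.8, 17.3 and 4.36 FPKM, with the third library far below the others. AGRN read 82.5, 93.5 and 39.6 FPKM in the same libraries and 47.8, 117 and 119 FPKM in those of LATS1/2-dKO cells. Without the 2 libraries the stiffness calls numbered 6 in RAP2A/B/C-tKO, 2 in LATS1/2-dKO, 2 in YAP/TAZ-dKO and 3 in WT cells, beside 5.02%, 2.98%, 2.47% and 6.36% of all genes.

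**Figure D4:**
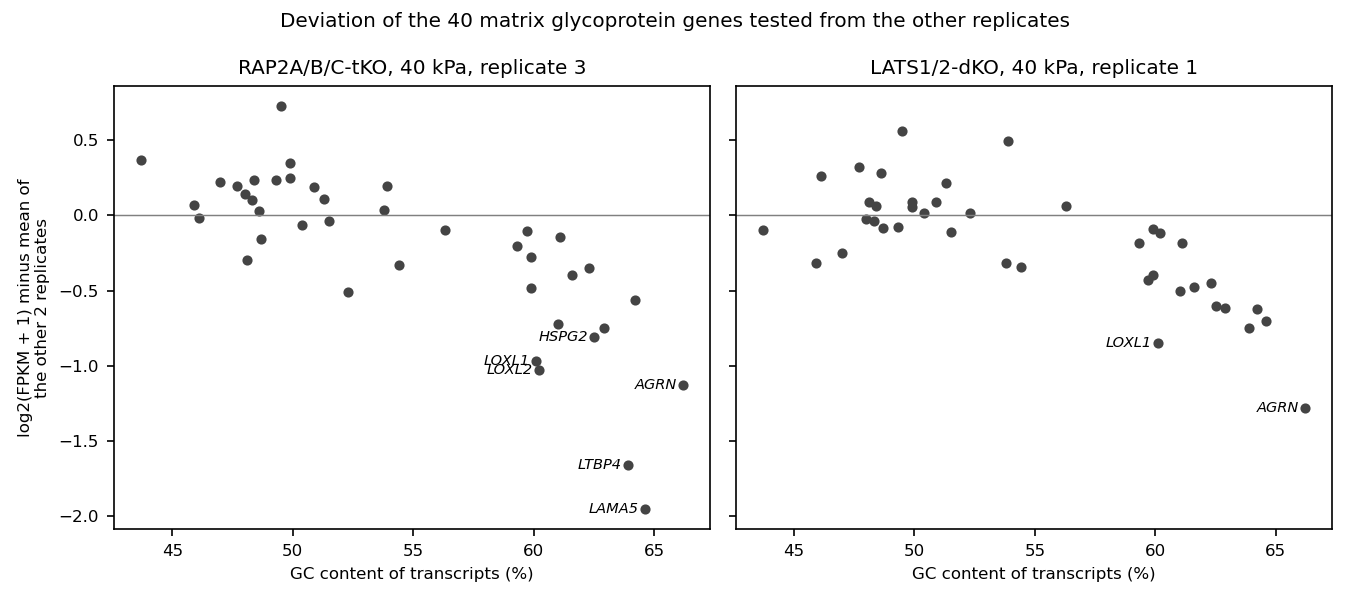
Difference of log2(FPKM + 1) between 1 library and the mean of the other 2 of its group, for the 40 genes tested, against the GC content of their transcripts in percent. Points run down to the right in both panels (rank correlation -0.79 in RAP2A/B/C-tKO and -0.70 in LATS1/2-dKO cells), and LAMA5, LTBP4 and AGRN lie lowest in the left panel.

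Whether the response to stiffness differed from that of WT cells was tested as the difference of the 2 responses. In RAP2A/B/C-tKO cells 1 of the 40 genes was called beside 0.0505% of all genes, in LATS1/2-dKO cells 0 beside 0.0632%, with 2 at an unadjusted limma p below 0.05, and in YAP/TAZ-dKO cells 1 beside 0.392%. FSTL1 responded more in RAP2A/B/C-tKO than in WT cells (difference of log2 changes 0.54 ± 0.09, adjusted p = 0.0325). EMILIN2 responded less in YAP/TAZ-dKO than in WT cells (difference -0.83 ± 0.17, adjusted p = 0.0444). Both lay close to the threshold. The FSTL1 call was lost without WT 1 kPa replicate 2 or 3, WT 40 kPa replicate 1 or 3, any RAP2A/B/C-tKO 1 kPa replicate or RAP2A/B/C-tKO 40 kPa replicate 1 (difference 0.47 to 0.57, adjusted p = 0.0520 to 0.129), and with the compared groups alone (adjusted p = 0.608). The EMILIN2 call was lost without any of the 6 WT libraries, any YAP/TAZ-dKO library at 40 kPa or YAP/TAZ-dKO 1 kPa replicate 1 or 3 (difference -0.86 to -0.73, adjusted p = 0.0742 to 0.135), and with the replicate number as a block (adjusted p = 0.0794).

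Other genes of the matrix were counted from lists that do not hold any of the 46. Of 22 tested matrix glycoproteins outside them, 6 rose and 8 fell in YAP/TAZ-dKO cells, 9 rose and 8 fell in LATS1/2-dKO cells and 2 rose and 4 fell in RAP2A/B/C-tKO cells. Of all genes 23.6% rose and 27.0% fell in YAP/TAZ-dKO cells, 16.0% rose and 17.8% fell in LATS1/2-dKO cells and 7.4% rose and 8.57% fell in RAP2A/B/C-tKO cells. The median log2 change of the 22 was 0.03, -0.04 and -0.06 in these lines, beside 0.0, -0.01 and 0.0 over all genes. NPNT, the integrin ligand nephronectin, averaged 3.75 ± 1.02 FPKM at 40 kPa in YAP/TAZ-dKO cells and 22.2 ± 2.301 in LATS1/2-dKO cells, against 11.1 ± 2.75 in WT cells (mean ± SD, n = 3, log2 change -1.24 and 1.02, adjusted p = 5.50e-08 and 1.64e-06). EDIL3, another integrin ligand, was higher in LATS1/2-dKO cells, at 10.5 ± 1.95 FPKM at 40 kPa against 0.130 ± 0.0323 in WT cells (log2 change 3.13). EDIL3 and TINAGL1, both among the 9 that rose there, averaged at least 1 FPKM in the LATS1/2-dKO groups alone, so the filter built in their differences. NTN4, also among the 9, averaged 0.710 and 0.641 FPKM at 40 and 1 kPa in WT cells and passed through knockout libraries. LAMC3, a further laminin gamma chain, rose in YAP/TAZ-dKO cells (log2 change 1.22, adjusted p = 6.49e-10) and fell in LATS1/2-dKO and RAP2A/B/C-tKO cells (-0.70 and -0.89). The fibroblast marker LUM also rose in LATS1/2-dKO cells (log2 change 2.35), beside the genes of the set that rose there. COL3A1 was higher there too, at 9.61 ± 0.98 FPKM at 40 kPa against 0.285 ± 0.134 in WT cells (log2 change 3.16, a difference that the filter built in). DCN, COL1A2, PDGFRB and FAP stayed below 0.2 FPKM in all libraries. COL1A1 and ACTA2, at 3.31 to 7.88 and 3.04 to 7.71 FPKM over the 24 libraries, were not called in LATS1/2-dKO cells (log2 change 0.23 and -0.22, adjusted p = 0.219 and 0.0863). Summed over the 10 fibroblast markers, of which 6 were below 1 FPKM everywhere, the level was 26.1 to 31.5 FPKM at 40 kPa and 27.9 to 30.2 FPKM at 1 kPa in LATS1/2-dKO libraries. It was 9.92 to 11.9 FPKM at 40 kPa and 10.99 to 13.1 FPKM at 1 kPa in WT libraries. The part of such cells in the rises was not tested.

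Of 21 tested receptors for laminin, fibronectin and nidogen, 11 fell and 3 rose in YAP/TAZ-dKO cells, with a median log2 change of -0.36, beside the 23.6% of all genes that rose and 27.0% that fell. CD44, a receptor for hyaluronan and matrix, changed most there (log2 change -2.36, adjusted p = 3.49e-13), with 1.48 ± 0.453 FPKM at 40 kPa in YAP/TAZ-dKO cells against 15.6 ± 1.37 in WT cells. ITGB1, the beta subunit of most laminin-binding integrins, fell by 0.34 on the log2 scale (adjusted p = 3.38e-07). Receptors rose in 4 and fell in 3 cases in LATS1/2-dKO cells, with a median of 0.03, and in RAP2A/B/C-tKO cells 5 rose and 1 fell, with a median of 0.08, beside 33.9% and 16.0% of all genes called. ITGB8, counted as a rise in both lines, averaged 0.729 FPKM at 40 kPa in WT cells. Its mean reached 1 FPKM in the LATS1/2-dKO groups and in RAP2A/B/C-tKO cells at 40 kPa alone. The filter thus built in both of its rises. Matrix proteases and their inhibitors, 25 of them tested, were called 12 upward and 7 downward in YAP/TAZ-dKO cells, 5 and 9 in LATS1/2-dKO cells and 2 and 3 in RAP2A/B/C-tKO cells, with median log2 changes of 0.08, -0.10 and -0.03. The share of all genes called in these comparisons was 50.6%, 33.9% and 16.0%. ADAMTS9 averaged at least 1 FPKM in the YAP/TAZ-dKO groups alone, and MMP16 in the YAP/TAZ-dKO and LATS1/2-dKO groups alone. The filter thus built in their rises in those lines. With stiffness the receptor SDC2 rose in RAP2A/B/C-tKO and WT cells (log2 change 0.28 and 0.25, adjusted p = 0.00222 and 0.0120), and the membrane protease MMP14 fell in both (-0.38 and -0.44, adjusted p = 0.0443 and 0.0487). CD44 fell with stiffness in YAP/TAZ-dKO cells (log2 change -0.97, adjusted p = 0.00127) and the protease gene MMP15 in RAP2A/B/C-tKO cells (-0.95, adjusted p = 0.000575).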

How the data were processed

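HEK293A cells of 4 genotypes on gels of 40 or 1 kPa were profiled by stranded mRNA sequencing, with 3 biological replicates per group per the series' design text. The authors deposited FPKM per gene for each of the 24 libraries, made with STAR 2.4.2a and Cufflinks 2.2.1 on hg19 per the submitters' processing notes. The annotation release and the strand setting used for these values are not stated, so values of overlapping and antisense genes are uncertain. FPKM of symbols on several entries were summed, and 92 symbols with a deposited status other than OK or LOWDATA anywhere were left out. Genes with at least 1 FPKM in at least 3 libraries (15828) were tested as log2(FPKM + 1) with limma 3.58.1 in R 4.3.3, with a mean-variance trend, a mean for each of the 8 groups (24 libraries, 16 residual degrees of freedom) and 10 contrasts. Tests were two-sided, with Benjamini-Hochberg adjustment over all genes within a contrast and a threshold of 0.05. The test was tried on simulated data.

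Depth was estimated from the deposited confidence intervals of genes with 1 transcript, since FPKM holds no counts; it limits the precision of genes near or below 1 FPKM. Values are given in every library for FN1, LAMA1, LAMA5, LAMB1 and LAMC1, for up to 6 called genes each way in every stiffness and genotype contrast and for up to 3 each way in every interaction; other genes given in full were chosen after their values were seen. The 46 genes, the further lists and the 2 libraries left out as an alternative were chosen with earlier results of these data known. Alternatives were another pseudocount, no filter, scaling to a common median ratio, omission of the GC-skewed libraries, a replicate block, each library left out in turn, and a fit of the compared groups alone. Promoter windows came from RefSeq on GRCh38.p14.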

Additional observations from a re-analysis of the deposited data

Results flagged for a closer look

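In 2 of the 40 genes the response to stiffness differed between a knockout line and WT cells by the limma test of that difference. FSTL1 responded more in RAP2A/B/C-tKO than in WT cells, by 0.54 on the log2 scale (adjusted p = 0.0325), and its 3 libraries at 40 kPa lay above its 3 at 1 kPa in both lines. That call was lost in 10 of 18 alternatives (adjusted p up to 0.608), and 0.0505% of all genes were called in the same comparison. EMILIN2 responded less in YAP/TAZ-dKO than in WT cells, by -0.83 (adjusted p = 0.0444). That call was lost in 13 of 18 alternatives (adjusted p up to 0.135), beside 0.392% of all genes called. Its libraries at 40 and 1 kPa overlapped in YAP/TAZ-dKO cells and did not overlap in WT cells.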

How the results depend on the processing

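Of 40 results for named genes, 29 kept their call under every alternative run, 11 lost it under at least 1, and 0 reversed. Counts of called genes among the 40 changed as follows. Without both GC-skewed libraries, stiffness calls were 2 in LATS1/2-dKO, 2 in YAP/TAZ-dKO and 3 in WT cells. With a pseudocount of 0.1, 1 gene was called for stiffness in YAP/TAZ-dKO cells and 0 for the RAP2A/B/C-tKO interaction. The YAP/TAZ-dKO interaction gave 0 without the filter and 0 with the replicate block. With the compared groups fitted alone, 0 genes were called for stiffness in RAP2A/B/C-tKO and LATS1/2-dKO cells and 0 for the RAP2A/B/C-tKO interaction, and FBN2, THBS1 and FRAS1 lost their calls in RAP2A/B/C-tKO against WT cells (adjusted p = 0.0579, 0.0635 and 0.0885). Leaving out 1 library at a time gave 2 to 7 stiffness calls in RAP2A/B/C-tKO, 0 to 1 in LATS1/2-dKO, 0 to 0 in YAP/TAZ-dKO and 0 to 1 in WT cells. It gave 7 to 10 calls for RAP2A/B/C-tKO against WT, 18 to 21 for LATS1/2-dKO against WT and 22 to 27 for YAP/TAZ-dKO against WT. For the interactions it gave 0 to 1 in RAP2A/B/C-tKO, 0 to 0 in LATS1/2-dKO and 0 to 1 in YAP/TAZ-dKO cells. Over all genes, stiffness calls without both GC-skewed libraries numbered 472 in LATS1/2-dKO cells (112 with them), 391 in YAP/TAZ-dKO cells (55 with them) and 1006 in WT cells (156 with them), and calls in RAP2A/B/C-tKO against WT numbered 4362 (2528 with them). With the compared groups alone, the stiffness calls were 8 in RAP2A/B/C-tKO (612 in the fit of all groups), 2 in LATS1/2-dKO and 45 in WT cells. Interaction calls without both libraries were 413 in YAP/TAZ-dKO cells (62 with them), 211 in LATS1/2-dKO cells (10 with them) and 20 in RAP2A/B/C-tKO cells (8 with them). Scaling to a common median ratio turned the split of stiffness calls in RAP2A/B/C-tKO cells to 324 higher and 313 lower (156 and 456 unscaled) in LATS1/2-dKO cells to 13 and 34 (14 and 98 unscaled), in WT cells to 95 and 73 (51 and 105 unscaled) and that of the YAP/TAZ-dKO interaction to 40 and 36 (41 and 21 unscaled). With the replicate block, 57 genes were called for stiffness in LATS1/2-dKO cells, and without the filter 387 in RAP2A/B/C-tKO cells. Interaction calls were 3 in RAP2A/B/C-tKO cells with a pseudocount of 0.1, 13 in RAP2A/B/C-tKO and 22 in LATS1/2-dKO cells without the filter, and 4 in RAP2A/B/C-tKO, 5 in LATS1/2-dKO and 273 in YAP/TAZ-dKO cells with the compared groups alone. The cause was not tested. Replicate numbers did not pair the libraries (correlations of 30 same-numbered pairs between -0.154 and 0.084, and 23 of 60 comparisons highest with the own number), and the replicate block changed no call of a named gene except EMILIN2 in the YAP/TAZ-dKO interaction.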
